A study of Mus musculus with 9 samples.

Results

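A set of 8 genes was followed through the transcriptome of MC38 tumour cells: the CC chemokines Ccl2, Ccl7 and Ccl5, the CXC chemokines Cxcl1, Cxcl10 and Cxcl16, and the colony-stimulating factors Csf1 and Csf2. They were found by their gene symbols in a table of 16509 genes, and all 8 were present. Of these, 7 had enough reads to be tested among 11949 genes, and Ccl5 did not. MC38 is a mouse colon carcinoma line. RNA was sequenced from control cells (Ctrl), from cells given copper chloride with cystine (Cu-Cys), and from cells given Cadict, a nanodrug that joins Cu-Cys with glucose oxidase and the EGFR-binding peptide GE11, with 3 libraries in each group. Per the labels the control cells received DMSO, whereas the methods of the study name PBS. The study describes its replicates in general as biological. The sources used here give no dose or duration for these libraries and do not say of them in particular how the cultures of a group were separated, so the tests measure the spread between the 3 libraries of a group. Column names that read CC were taken as Cu-Cys and those that read CCGE as Cadict, from the initials of their components.

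Chemokines are small secreted proteins that guide leukocytes along a gradient through G-protein-coupled receptors, and colony-stimulating factors sustain and activate the myeloid cells that such gradients bring in. In tumours, Ccl2 and Ccl7 draw monocytes through Ccr2, Cxcl1 draws neutrophils and immature myeloid cells through Cxcr2, Cxcl10 and Cxcl16 draw T cells through Cxcr3 and Cxcr6, and Ccl5 draws T cells and monocytes. Csf1 supports macrophages through Csf1r, and Csf2, also called GM-CSF, supports granulocytes, macrophages and dendritic cells. Many of these genes are switched on by NF-kappa-B or by interferon-activated factors, and several of their mRNAs are short-lived because of AU-rich stretches in the 3′ UTR. Only mRNA was measured here, so the amounts of secreted protein are not known.

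The libraries held 17905771 to 18293056 expected counts, estimated reads per gene that need not be whole. Counts were compared after TMM scaling, which sets libraries to a common level of most genes, and levels after scaling are given as CPM, counts relative to the scaled library total. The scaling matters for Cadict. The 100 genes with the most counts took 29.8 to 31.1% of the counts there, against 17.2 to 17.4% in Ctrl, and the TMM factors were 0.64 to 0.665 in Cadict against 1.26 to 1.27 in Ctrl. Dividing by library totals instead moved the median log2 fold change of all genes by -0.95 between Cadict and Ctrl, by -0.88 between Cadict and Cu-Cys and by -0.07 between Cu-Cys and Ctrl. Among genes called between Cadict and Ctrl, 43.3% were higher in Cadict under TMM and 11.9% under library totals, and between Cadict and Cu-Cys 44.1% and 10.8%. Directions that depend on this choice are named as such below. In bulk RNA, fewer cells of a type and less RNA per cell cannot be told apart. Replicate 2 of Cadict stood apart from its group, with a chi-square per degree of freedom of 14.7 and 23.1 against the other replicates, whereas replicates 1 and 3 gave 3.63. Markers of the labelled cell type were sparse: of 7 epithelial marker genes in the table, Epcam had at most 4 counts in any library and Krt18 at most 2, while Cdh1, the epithelial cadherin, was measurable at 4.86 ± 0.498 CPM in Ctrl (SD, n = 3). Most markers of leukocytes were also sparse, with at most 4 counts for the leukocyte antigen Ptprc and at most 1 count for Csf1r and for Cd3g. Cd68, Cd14 and Lck of those lists were measurable, with 47 to 214, 83 to 125 and 35 to 62 counts per library.

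A gene is called changed below where edgeR's quasi-likelihood test gave an adjusted p no greater than 0.001 and the level differed by 2-fold or more, and it is said to rise or fall where the adjusted p was no greater than 0.05. After Cu-Cys, no member rose and 6 of the 7 tested fell, all but Cxcl16, against 22.6% of all tested genes that rose and 22.4% that fell. Of the members 5 were called lower (Ccl2, Ccl7, Cxcl1, Cxcl10 and Csf2), where 1.47% of all tested genes were, and 0 were called higher, where 0.167% were. In edgeR, no member was higher in Cu-Cys at an unadjusted p under 0.05 either, and DESeq2 also gave 0. After Cadict, compared with Ctrl, 4 members rose and 3 fell, against 40.6% and 47.1% of all tested genes. Csf2 and Cxcl16 were called higher, as were 20.7% of all tested genes, and Ccl2 and Ccl7 were called lower, as were 27.1%. The member share called between Cadict and Ctrl thus lay near that of the whole transcriptome in both directions. Between Cadict and Cu-Cys 5 members rose and 2 fell, against 40.3% and 45.6% of all tested genes. Csf2, Cxcl10 and Cxcl16 were called higher, as were 18.6% of genes, and Ccl2 and Ccl7 were called lower, as were 23.6%. Under library totals only 2 members, Csf2 and Cxcl16, rose between Cadict and Ctrl and 5 fell, against 18.1% of all tested genes that rose and 73.1% that fell. Between Cadict and Cu-Cys 3 rose and 4 fell under library totals, against 17.3% and 72% of all tested genes. The falls of members on that scale thus lay near or under the share of the whole transcriptome. These comparisons share libraries, so their values stand side by side and are not independent of each other. The median log2 fold change of the 7 tested members was -1.06 for Cu-Cys against Ctrl, 0.42 for Cadict against Ctrl and 0.67 for Cadict against Cu-Cys, beside 0.0067, -0.13 and -0.10 over all tested genes.

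**Figure D1:**
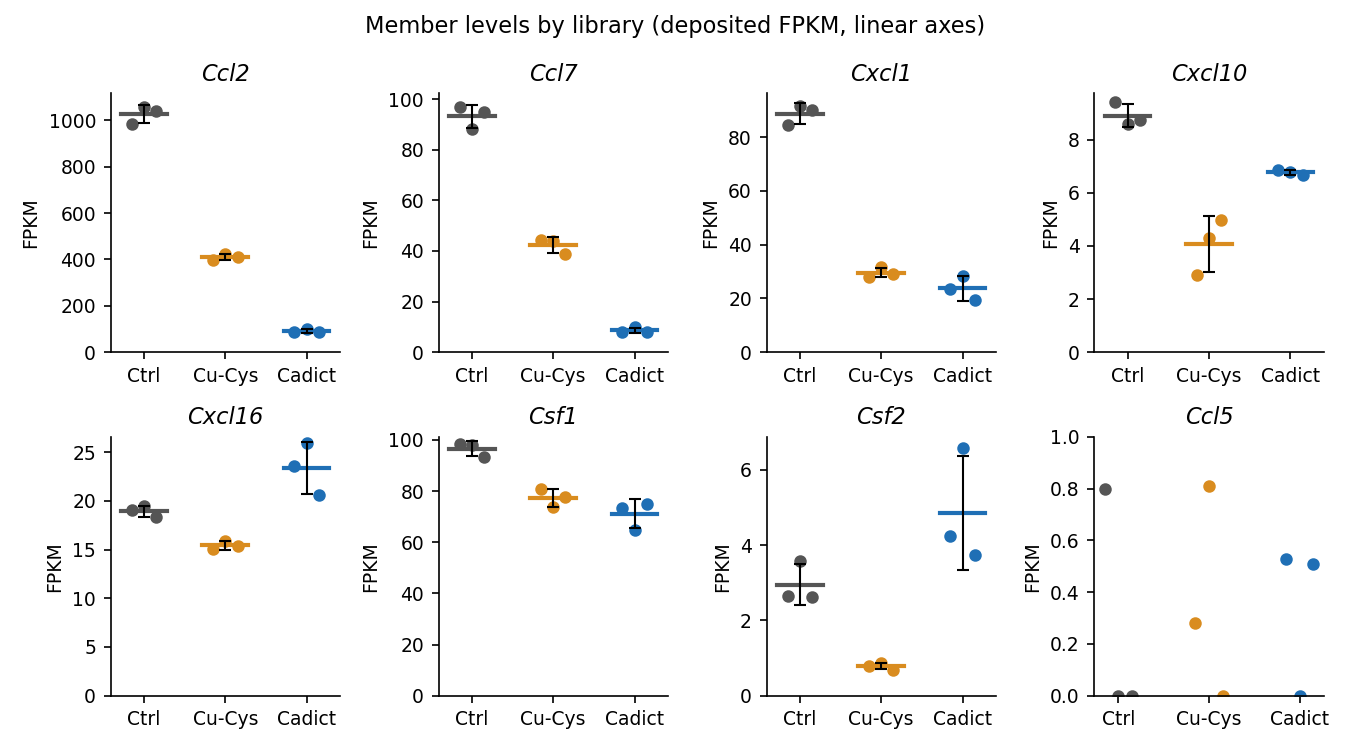
Deposited FPKM of each member (y axis, linear, a separate scale in each panel) in the 3 libraries of each group; points are libraries, horizontal lines are group means and black bars are SD (n = 3), both left out for Ccl5. Ccl2 and Ccl7 step down from Ctrl to Cu-Cys to Cadict, with Ccl2 means of 1029, 409.8 and 91.1 FPKM, while Csf2 and Cxcl16 are highest in Cadict. FPKM is set by library totals, so Csf1 and Cxcl10 lie lower in Cadict than in Ctrl here although they lie higher after TMM scaling.

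In the genome the members sit in a few neighbourhoods, all given on GRCm38 with GENCODE M21, while the submitters' processing notes name GRCm39. Ccl2 (chr11:82035571-82037453, plus strand, 3 exons) and Ccl7 (chr11:82045712-82047525, plus strand, 3 exons) are 8258 bases apart in the CC chemokine cluster, and Ccl5 (chr11:83525778-83530518, minus strand) lies further along the same chromosome. Cxcl1 (chr5:90891241-90893115, plus strand, 4 exons) has Cxcl2 as its nearest coding neighbour, and Cxcl10 (chr5:92346638-92348889, minus strand) has Cxcl9. Csf2 (chr11:54247271-54249667, minus strand, 4 exons) lies beside Il3, Csf1 is at chr3:107741048-107760469 (minus strand, 9 exons in its longest coding transcript), and Cxcl16 is at chr11:70453983-70459984 (minus strand, 5 exons). No 50-base stretch of a member's annotated transcripts was shared on the same strand with another gene, so reads of Ccl2 and Ccl7 could be told apart at that length. On the opposite strand, 16.9% of the stretches of Cxcl16 overlapped Zmynd15, 6.39% of those of Csf2 overlapped Gm12223 and 3.59% of those of Cxcl10 overlapped Art3. The sources used here do not say whether counting used strand. Zmynd15 had 25 to 114 counts per library and fell after Cadict against Ctrl (log2 fold change -0.74, adjusted p = 0.00156) while Cxcl16 rose, and Art3 had at most 1 count.

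RefSeq promoter windows on GRCm38.p6 (250 bases before to 50 bases after a start) were at hand for Csf1, Csf2, Cxcl1 and Cxcl10 and not for Ccl2, Ccl5, Ccl7 and Cxcl16, and are shown only where they hold a searched motif, because the factors that bind such motifs are read further on. A kappa-B-like pattern, GGGNNNTTCC on either strand, occurred in the windows of Csf1, Cxcl1 and Cxcl10 and in 5.56% of all 32851 windows. The interferon-response-like pattern GAAANNGAAA occurred in that of Cxcl10 and in 3.44% of all windows, and the AP-1 pattern TGANTCA also in that of Cxcl10 and in 7.81%. The patterns TGACGTCA, TATAAA and TGATGNAA, present in 1.79%, 13.6% and 3.97% of windows, were in none of the 4, and no searched pattern was in the Csf2 window. The patterns were chosen after several similar spellings had been tried, and a match describes letters only. Each stretch below runs 5′ to 3′ on the strand of its gene, with the pattern in capitals. The windows of Cxcl1 and Cxcl10 each hold kappa-B-like matches at separate positions, and in Cxcl1 the match nearest the start reads as the pattern on both strands, shifted by 1 base.
Cxcl1, -71 to -62 from the start, chr5:90891166-90891191: tgtactccGGGAATTTCCctggcccg
Cxcl1, -89 to -80, opposite strand, chr5:90891148-90891173: ggttgcagGGAAACACCCtgtactcc
Cxcl10, -159 to -150, chr5:92349031-92349056: aggggagaGGGAAATTCCaagttcat
Cxcl10, -104 to -95, chr5:92348976-92349001: ggtttacaGGGGACTTCCctcgggtt
Cxcl10, interferon-response-like, -213 to -204, chr5:92349085-92349110: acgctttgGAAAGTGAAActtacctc
Cxcl10, AP-1, -74 to -68, chr5:92348949-92348971: agccttgcTGAGTCAtctccaaa
Csf1, kappa-B-like on the opposite strand, -154 to -145, chr3:107760606-107760631: gccttgagGGAAAGTCCCtaggggcc

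The members also differ in the AU-rich pentamer ATTTA, the core of the element bound by mRNA decay factors. The annotated 3′ UTR of Csf2 holds 9 such pentamers in 317 bases, with 9 occurrences of the longer TATTTAT, and that of Cxcl1 holds 7 and 6 in 592 bases. Csf1 has 4 pentamers in 2111 bases, Cxcl10 has 3 in 996, Cxcl16 has 2 in 1421, Ccl7 has 2 in 435, Ccl2 has 1 in 275 and Ccl5 has 0 in 199. Over 21020 mouse coding genes, 65.2% have at least 1 pentamer in their longest 3′ UTR and 27.6% have the longer form, which among the members is found in Csf2, Cxcl1 and Csf1.

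Compared per length as FPKM, fragments scaled to transcript length and library total, the members of Ctrl cells spanned from near 0 to the top of the transcriptome. Ccl2 averaged 1029 ± 38 FPKM (SD, n = 3), above 99.5% of the genes listed. Csf1 at 96.5 ± 2.9, Ccl7 at 93.2 ± 4.5 and Cxcl1 at 88.8 ± 3.81 FPKM followed, with Csf1 overlapping Ccl7 and Ccl7 overlapping Cxcl1. Below them came Cxcl16 at 18.9 ± 0.583, Cxcl10 at 8.91 ± 0.446 and Csf2 at 2.95 ± 0.543 FPKM, none overlapping the next. In Cu-Cys the order was unchanged, and Csf1, Ccl7 and Cxcl1 no longer overlapped each other, at 77.4 ± 3.53, 42.4 ± 3.06 and 29.6 ± 1.81 FPKM. Ccl2 there averaged 409.8 ± 13.7, Cxcl16 15.4 ± 0.459 and Cxcl10 4.07 ± 1.05 FPKM, and Csf2 at 0.783 ± 0.0862 FPKM overlapped Ccl5. In Cadict cells Ccl2 at 91.1 ± 9 FPKM was still highest, Csf1 at 71.1 ± 5.66 came next, and Cxcl1 at 23.8 ± 4.56 overlapped Cxcl16 at 23.4 ± 2.64. Ccl7 had dropped to the fifth place at 8.63 ± 0.987 FPKM, above Cxcl10 at 6.79 ± 0.095 and Csf2 at 4.85 ± 1.52.

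Ccl5 was the member near 0. Its counts were 3, 0 and 0 in Ctrl, 1, 3 and 0 in Cu-Cys, and 2, 0 and 2 in Cadict. No library exceeded 3 counts, the upper limit that a count of 0 allows, and the groups overlapped fully, so no fold change is given and a difference was not detectable at this depth. Csf2 was the next lowest member, with 9 to 84 counts, and Cxcl10 had 40 to 132. The other tested members had at least 69 counts in each library.

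Ccl2, the principal monocyte attractant of the set, fell in both treatments. Its counts were 8532, 9229 and 8831 in Ctrl, 3315, 3648 and 3648 in Cu-Cys, and 748, 882 and 750 in Cadict. The 3 groups were widely separated, with Cadict lowest and Ctrl highest. Mean levels were 384.4 ± 15.2, 162 ± 7.87 and 67.8 ± 7.85 CPM (SD, n = 3 each). Against Ctrl the level was 2.37-fold lower in Cu-Cys (log2 fold change -1.25, SE 0.0665, edgeR adjusted p = 7.44e-09) and 5.67-fold lower in Cadict (-2.50, SE 0.0726, adjusted p = 4.17e-14). Cadict was also 2.39-fold below Cu-Cys (-1.26, SE 0.0719, adjusted p = 1.43e-10). The scaling by library totals, FPKM or TPM made these falls larger.

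Ccl7, a monocyte chemokine that shares Ccr2 with Ccl2, moved in parallel. It had 828, 760 and 795 counts in Ctrl, 368, 374 and 342 in Cu-Cys, and 69, 84 and 70 in Cadict, again with no overlap between groups. Levels went from 34.5 ± 1.47 to 16.6 ± 0.836 and 6.35 ± 0.837 CPM. The log2 fold change was -1.06 for Cu-Cys against Ctrl (SE 0.0719, adjusted p = 7.61e-08), -2.44 for Cadict against Ctrl (SE 0.0944, adjusted p = 1.1e-12) and -1.38 for Cadict against Cu-Cys (SE 0.103, adjusted p = 3.43e-09). Among 8551 well-expressed genes, the gene whose centred log2 profile over the 9 libraries lay closest to Ccl2 was Ccl7, at a root mean square distance of 0.118, and the closest to Ccl7 was Ccl2. The next were Sned1 for Ccl2 (0.139) and Wnt10b for Ccl7 (0.121). Within single libraries, where no scaling between libraries enters, Ccl2 FPKM was 8.91 to 12.02 times that of Ccl7. The group means of this ratio, 11.1 ± 0.913 in Ctrl, 9.71 ± 0.824 in Cu-Cys and 10.6 ± 0.168 in Cadict, overlapped.

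Cxcl1, a neutrophil attractant and a classical NF-kappa-B target, fell after both treatments relative to Ctrl. Counts were 959, 1048 and 1010 in Ctrl, 311, 358 and 337 in Cu-Cys, and 265, 324 and 222 in Cadict. Counts of the treated groups overlapped each other and lay far below Ctrl. The level fell from 43.6 ± 1.98 CPM in Ctrl to 15.4 ± 1.01 in Cu-Cys, 2.84-fold lower (log2 fold change -1.51, SE 0.101, adjusted p = 6.68e-08). In Cadict it was 23.1 ± 4.83 CPM, 1.89-fold below Ctrl (-0.92, SE 0.104, adjusted p = 5.61e-07). With library totals this change from Ctrl to Cadict was -1.87 and was called. Cadict exceeded Cu-Cys by 1.5-fold after TMM scaling (0.59, SE 0.116, adjusted p = 0.000208). As ratios of group means it lay below Cu-Cys with library totals (-0.30), FPKM (-0.32) and TPM (-0.60). Replicate 2 of Cadict held the highest Cxcl1 count of its group, and without it the change against Ctrl was -1.09 and passed the call threshold. The nearest profiles belonged to Nfkbiz, an NF-kappa-B cofactor (distance 0.169), and to Vdr, the vitamin D receptor (0.229).

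Cxcl10, an interferon-inducible T cell attractant, was lowest in Cu-Cys. It had 132, 121 and 121 counts in Ctrl, 40, 60 and 71 in Cu-Cys, and 96, 95 and 94 in Cadict. The Cu-Cys libraries were the most scattered and lay below the others. Levels were 5.41 ± 0.262 CPM in Ctrl, 2.61 ± 0.706 in Cu-Cys and 8.11 ± 0.198 in Cadict. Cu-Cys was 2.07-fold below Ctrl (log2 fold change -1.05, SE 0.154, adjusted p = 8.23e-05), and Cadict was 3.1-fold above Cu-Cys (1.63, SE 0.161, adjusted p = 1.09e-07). The latter was 0.75 with library totals, 0.74 with FPKM and 0.47 with TPM, each under 2-fold. Leaving out replicate 1 of Cu-Cys reduced the former to -0.86, under the 2-fold threshold. Against Ctrl, Cadict was 1.5-fold higher after TMM scaling (0.58, SE 0.141, adjusted p = 0.00118). As ratios of group means it was lower with library totals (-0.37), FPKM (-0.39) and TPM (-0.74), and its raw counts were lower in all 3 libraries. The direction for Cadict against Ctrl was therefore set by the scaling. Usp11 (distance 0.143) and Akap7 (0.172) had the nearest profiles.

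Cxcl16, a chemokine with a membrane-bound and a shed form, was the CXC member that rose most in Cadict against Ctrl after TMM scaling. Its expected counts were 403, 414 and 384 in Ctrl, 311, 335 and 327 in Cu-Cys, and 493, 545 and 435 in Cadict. Each Cadict library lay above each Ctrl library even before scaling, and each Cu-Cys library lay below. Levels were 17.4 ± 0.592, 14.9 ± 0.486 and 42.0 ± 5.48 CPM. Cadict was 2.41-fold above Ctrl (log2 fold change 1.27, SE 0.0855, adjusted p = 8.71e-10) and 2.82-fold above Cu-Cys (1.496, SE 0.0876, adjusted p = 1.91e-10). The first of these shrank to 0.32 on the ratio of library-total levels and to -0.0468 with TPM, where it did not pass (limma adjusted p = 0.532). The second shrank to 0.61 with library totals, 0.60 with FPKM and 0.32 with TPM, and was under 2-fold on each of these scales. The Cu-Cys value of -0.22 against Ctrl did not pass (SE 0.0896, adjusted p = 0.0534), and it passed in several alternatives at a like size. The profile nearest to Cxcl16 was that of H2-K1, a classical MHC class I heavy chain, at a distance of 0.0596, followed by Zfand6 (0.0612).

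Csf1, the macrophage growth factor, moved by less than 2-fold in each comparison. Counts were 6307, 6366 and 5992 in Ctrl, 5064, 4746 and 5027 in Cu-Cys, and 4352, 3877 and 4452 in Cadict, so that raw counts were lowest in Cadict. After TMM scaling the order of the groups differed, with 269.8 ± 7.59 CPM in Ctrl, 226.6 ± 8.62 in Cu-Cys and 360.4 ± 19.7 in Cadict. Cu-Cys was 1.19-fold below Ctrl (log2 fold change -0.25, SE 0.0527, adjusted p = 0.00134). Cadict was 1.34-fold above Ctrl (0.42, SE 0.0529, adjusted p = 1.93e-06) and 1.59-fold above Cu-Cys (0.67, SE 0.0531, adjusted p = 7.7e-09) under TMM. With library totals the same contrasts were -0.53 and -0.21, with FPKM -0.44 and -0.12, and with TPM -0.78 and -0.39. Ncam1 (distance 0.0373) and Bgn (0.0413) followed Csf1 most closely.

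Csf2 had the widest swing of the set. Its counts were 34, 46 and 33 in Ctrl, 10, 11 and 9 in Cu-Cys, and 54, 84 and 48 in Cadict. Cu-Cys libraries lay at the bottom and Cadict libraries at the top without overlap, and replicate 2 of Cadict was well above the others of its group. The level was 1.63 ± 0.31 CPM in Ctrl, 0.458 ± 0.0464 in Cu-Cys and 5.31 ± 1.76 in Cadict. Cu-Cys was 3.53-fold below Ctrl (log2 fold change -1.82, SE 0.332, adjusted p = 0.000469) and Cadict was 3.23-fold above it (1.69, SE 0.227, adjusted p = 3.67e-06), an 11.4-fold difference between the treatments (3.51, SE 0.291, adjusted p = 1.31e-08). Without replicate 2 of Cadict the rise over Ctrl was 1.39 and was still called. With library totals this rise was 0.74 (adjusted p = 0.005) and was not called, and with TPM it was 0.29 and did not pass (limma adjusted p = 0.0588). The difference between the treatments was 2.63 with library totals and was still called. The fall in Cu-Cys missed the call threshold whenever any single Ctrl or Cu-Cys library was left out of the fit of all 3 groups. Log2 fold changes there were -1.90 to -1.65, with adjusted p of 0.00144 to 0.0038. In the edgeR fit of Ctrl and Cu-Cys alone the fall was called (-1.83, adjusted p = 6.59e-06). It was also called without replicate 2 of Cadict (-1.82, adjusted p = 5.36e-06). Lcn2 (distance 0.197), which encodes the iron-carrier-binding lipocalin 2, and Creb5 (0.308) had the nearest profiles.

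**Figure D2:**
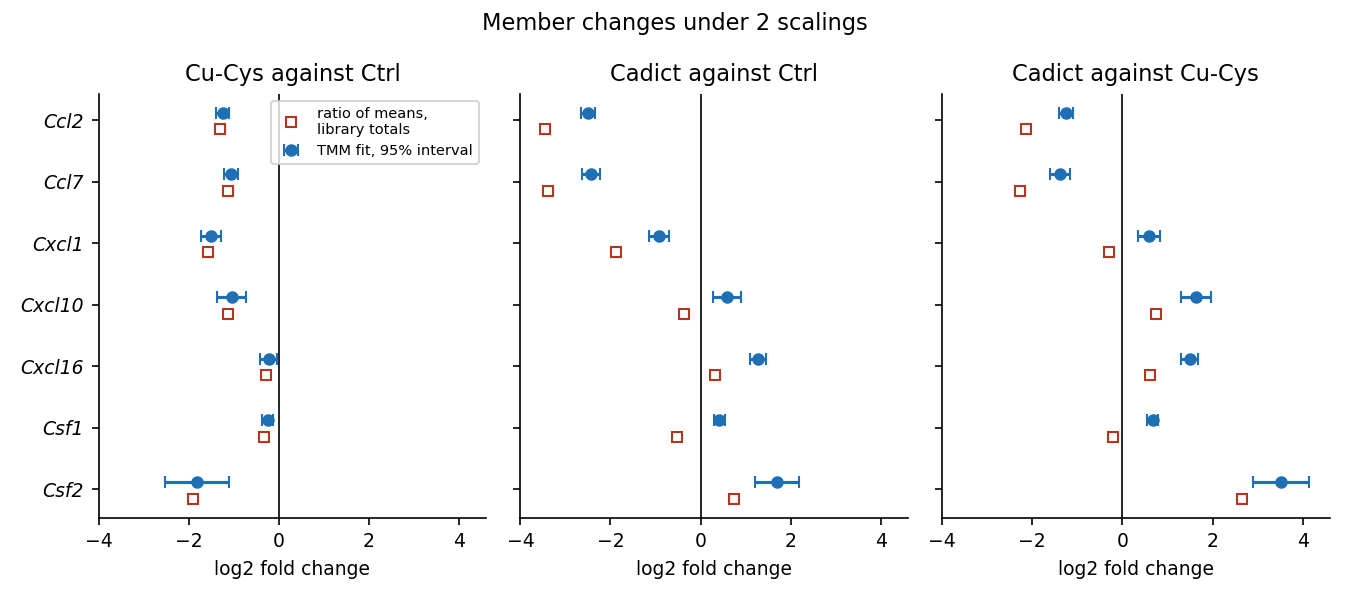
Log2 fold change of the 7 tested members (x axis) in 3 comparisons; filled circles with bars are the edgeR estimate after TMM scaling with its 95% interval, and open squares are ratios of group means after division by library totals. For Cu-Cys against Ctrl the scalings nearly coincide. For Cadict the squares lie about 1 unit to the left, which places Csf1 and Cxcl10 on opposite sides of 0 against Ctrl, and Csf1 and Cxcl1 against Cu-Cys.

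The place of a member among all tested genes does not depend on one factor per group, since such a factor shifts each gene alike. In Cu-Cys against Ctrl, 0.368% of tested genes had a lower log2 fold change than Csf2, 0.812% lower than Cxcl1, 1.46% lower than Ccl2, 2.43% lower than Ccl7 and 2.51% lower than Cxcl10. Csf1 and Cxcl16 were less extreme, at 22% and 24.1%. In Cadict against Ctrl, Ccl2 and Ccl7 stood at 6.96% and 7.53% and Cxcl1 at 30.5%, whereas Csf1 at 64.7%, Cxcl10 at 69.1%, Cxcl16 at 84% and Csf2 at 90% lay in the upper part. In Cadict against Cu-Cys, Csf2 stood at 98.4%, Cxcl10 at 91.4% and Cxcl16 at 89.6%, with Ccl7 and Ccl2 at 17.9% and 20.1%. Relative to the other genes, then, Csf2 was among the most reduced genes in Cu-Cys against Ctrl. In Cadict it lay in the upper part against Ctrl, at 90%, and near the top against Cu-Cys, at 98.4%.

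**Figure D3:**
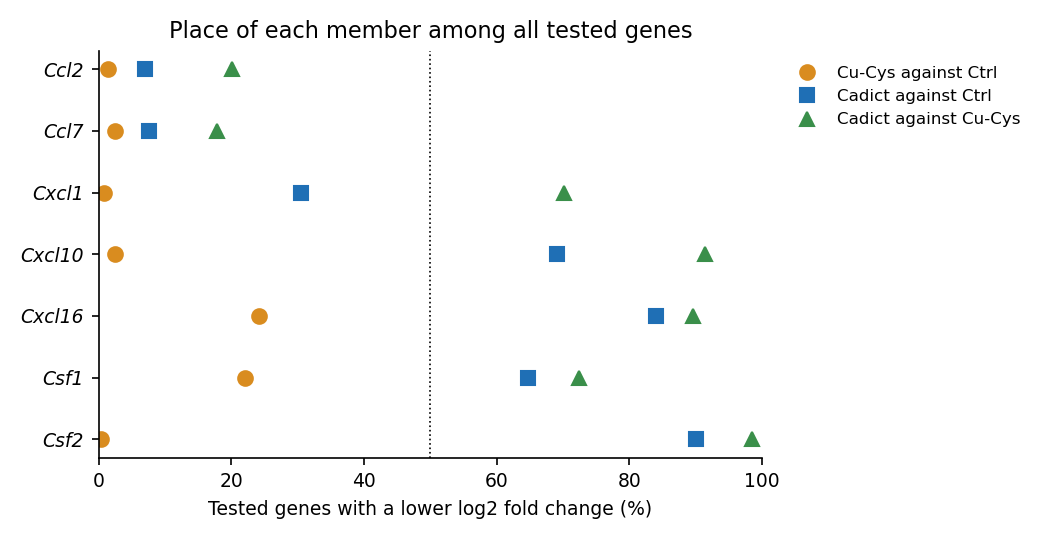
Percent of the 11949 tested genes with a lower log2 fold change than each member (x axis) in the 3 comparisons; the dotted line marks 50%. In Cu-Cys against Ctrl 5 members sit between 0.368 and 2.51%, while in the comparisons of Cadict the members spread from 6.96 to 98.4%.

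The make-up of the set changed along with the levels. Summed over the 8 members, FPKM was 1338 ± 36.5 in Ctrl, 579.8 ± 13.4 in Cu-Cys and 229.9 ± 12.3 in Cadict, and most of this decline was Ccl2. These sums follow library totals, and the summed TMM level was 756.7 ± 18.8 CPM in Ctrl, 438.5 ± 5.7 in Cu-Cys and 513.1 ± 3.31 in Cadict, where Cadict lay above Cu-Cys. The shares of members within a library do not depend on that choice. Ccl2 provided 76.9 ± 0.76% of the sum in Ctrl, 70.7 ± 0.86% in Cu-Cys and 39.6 ± 1.85% in Cadict. Csf1 took 7.22 ± 0.345%, 13.4 ± 0.911% and 31.1 ± 4.03%, and Cxcl16 took 1.42 ± 0.0571%, 2.66 ± 0.0178% and 10.1 ± 0.658%. Csf2 went from 0.22 ± 0.0362% in Ctrl to 2.09 ± 0.534% in Cadict, and Ccl7 from 6.97 ± 0.508% to 3.75 ± 0.235%. In each of these cases the Ctrl and Cadict libraries did not overlap.

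Ratios between members within a library were chosen after the dependence on scaling was seen, and they need no scaling. Ccl2 FPKM was 10.7 ± 0.595 times Csf1 FPKM in Ctrl, 5.31 ± 0.421 times in Cu-Cys and 1.295 ± 0.24 times in Cadict, an 8.24-fold drop from Ctrl to Cadict. The ratio of Csf2 to Csf1 was 0.0306 ± 0.00523 in Ctrl, 0.0102 ± 0.00142 in Cu-Cys and 0.0698 ± 0.0281 in Cadict, without overlap. That of Cxcl16 to Csf1 was 0.196 ± 0.00244, 0.20 ± 0.0152 and 0.332 ± 0.064, where Ctrl and Cu-Cys overlapped and Cadict lay above both. Cxcl10 and Csf1 kept a ratio of 0.0924 ± 0.00418 in Ctrl and 0.0959 ± 0.00828 in Cadict, which overlapped, and stood lower at 0.0529 ± 0.0147 in Cu-Cys. With 3 libraries against 3, the smallest two-sided p of an exact permutation test is 0.1, so that test could not pass 0.05 for any ratio. No other test of the ratios was run.

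**Figure D4:**
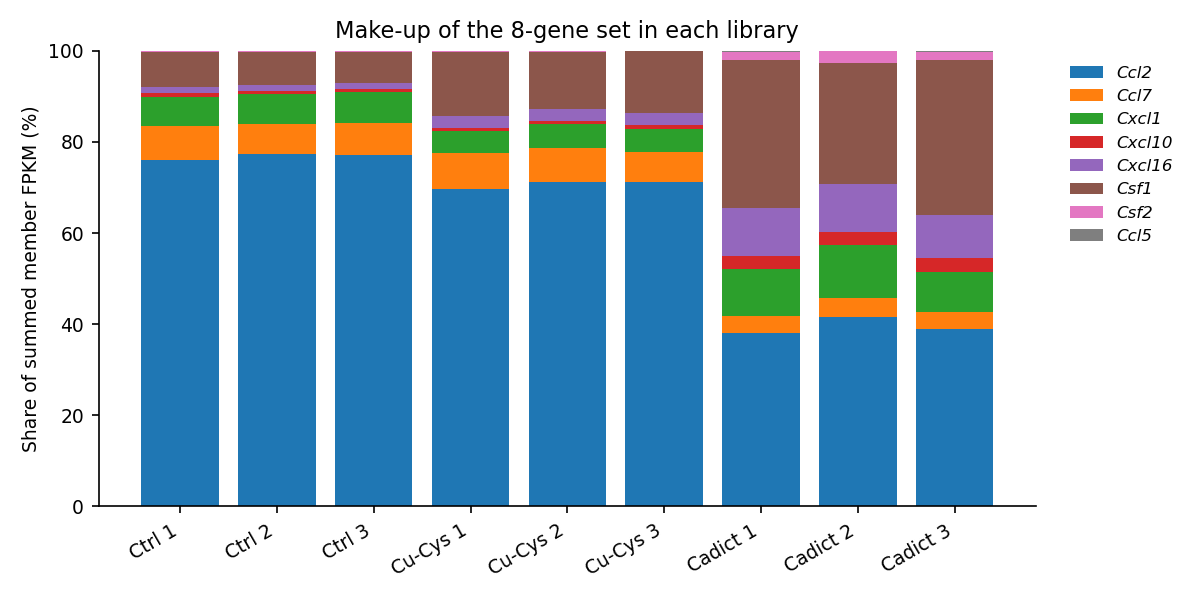
Share of each member in the summed FPKM of the 8 genes (y axis, percent, from 0) in each of the 9 libraries. Ccl2 fills 76.0 to 77.4% in Ctrl and 38.1 to 41.7% in Cadict, where Csf1, Cxcl1 and Cxcl16 fill most of the remainder.

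Other ligands of the same families were mostly silent. Of 17 further CC chemokines listed, 10 were in the table, 4 of them with at most 3 counts in each library, and 4 were tested. Against Ctrl, 2 rose after Cadict and 2 fell after Cu-Cys. Beside this and the later lists, 40.6% of all tested genes rose and 47.1% fell in Cadict against Ctrl. In Cu-Cys against Ctrl, 22.6% rose and 22.4% fell. Ccl25, a chemokine of gut-homing T cells, rose after Cadict (log2 fold change 1.68, adjusted p = 3.16e-11), as did Ccl27a (2.74, adjusted p = 5.1e-10), although 45% of the stretches of Ccl27a recur in Gm20878 and its counts are uncertain. Both lay higher in Cadict under library totals, FPKM and TPM too. On the opposite strand, 2.06% of the stretches of Ccl25 overlapped Elavl1, which also rose in Cadict. Elavl1 had 3642 to 6684 counts per library, against 294 to 547 for Ccl25. Ccl9 gave -0.55 (adjusted p = 0.0742) in Cadict and fell by 0.76 in Cu-Cys (adjusted p = 0.0196). Ccl20, which attracts cells with Ccr6, fell after Cu-Cys by 2.03 (adjusted p = 0.00112) and rose between Cu-Cys and Cadict (2.71, adjusted p = 2.15e-05). It is outside the naming rule and was picked after its values were seen.

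Of 14 further CXC, CX3C and XC chemokines, 9 were in the table, 5 of them with at most 3 counts in each library, and 2 were tested. Cxcl2, which shares Cxcr2 with Cxcl1 and lies 10755 bases from it, had 0, 2 and 0 counts in Ctrl, 2, 0 and 0 in Cu-Cys, and 37, 46 and 39 in Cadict. It exceeded 3 counts in Cadict libraries alone, where it averaged 3.48 ± 0.466 CPM. This is at least 26.7-fold higher than the floor of 3 counts per Ctrl library on the TMM scale (at least 13.6-fold on raw counts). Of its stretches 5.84% recur in Cxcl3, which had at most 5 counts. Cx3cl1, also called fractalkine, fell in Cu-Cys (-0.52, adjusted p = 5.24e-05) and in Cadict (-2.37, adjusted p = 2.81e-12). The neighbours of members were silent in places: Cxcl9, beside Cxcl10, and Il3, beside Csf2, had at most 1 count in any library.

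Among 8 further growth factors of myeloid and stem cells, 7 were in the table and 4 were tested, of which 1 rose and 2 fell in Cadict against Ctrl, and 2 fell in Cu-Cys. Il34, the other ligand of Csf1r, fell in Cadict (-0.70, adjusted p = 2.4e-08), with -0.06 in Cu-Cys (adjusted p = 0.369). Flt3l, a growth factor of dendritic cells, fell in Cadict (-1.23, adjusted p = 0.000315), with 18.5% of its stretches also in Gm45713. Kitl, or stem cell factor, rose (1.13, adjusted p = 6.4e-10), but was lower on the TPM scale (-0.16). Csf3 had at most 6 counts.

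Of 23 chemokine receptors listed, 15 were in the table, 9 had at most 3 counts in each library, and 1, Ackr3, was tested. Ackr3, a scavenging receptor that does not signal through G proteins, had up to 1726 counts and a mean of 54.23 FPKM in Ctrl, above that of Cxcl16, whereas the other chemokine receptors had at most 16 counts. Ackr3 fell in Cu-Cys (-0.46, adjusted p = 8.42e-05) and in Cadict (-0.71, adjusted p = 1.6e-07). Of 5 receptors of colony-stimulating factors, 3 were in the table and 1, Csf2ra, was tested. This gene, the ligand-binding chain for Csf2, went from 0.361 ± 0.0889 CPM in Ctrl to 1.91 ± 0.179 in Cadict (log2 fold change 2.38, adjusted p = 2e-06), with -0.24 in Cu-Cys (adjusted p = 0.673). Csf2ra counts were low, at 6 to 10 in Ctrl, 4 to 9 in Cu-Cys and 20 to 24 in Cadict. Its mean of 0.857 CPM lies under the 1 CPM of the naming rule. Csf1r, the receptor of Csf1, had at most 1 count.

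Enzymes that shed or trim chemokines and their inhibitors were also read. Of 9 listed, 8 were tested, and 4 rose and 4 fell in Cadict, while 1 rose and 3 fell in Cu-Cys. Of the Cadict rises 2 turned under library totals, Mmp2 from 0.59 to -0.36 and Mmp9 from 0.72 to -0.24. Timp1, an inhibitor of metalloproteinases, rose in Cadict (3.17, adjusted p = 9.21e-15) and Timp2 fell (-1.01, adjusted p = 2.35e-11). Timp3 rose (1.26, adjusted p = 5.66e-12) except on the TPM scale (-0.04), and 21.1% of its stretches overlap Syn3 on the opposite strand. Adam10 and Adam17, proteases that release membrane-bound Cxcl16 and Cx3cl1, both fell in Cadict, by 0.81 (adjusted p = 7.93e-08) and by 0.76 (adjusted p = 1.14e-08).

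**Figure D5:**
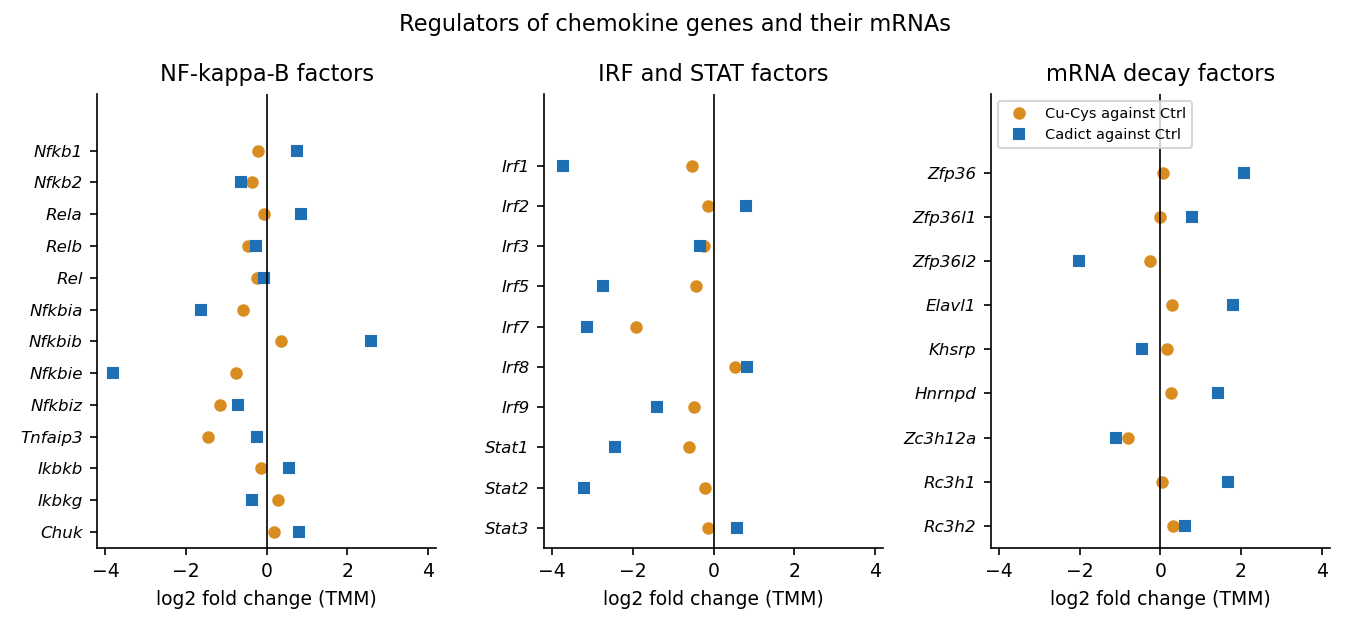
Log2 fold change after TMM scaling (x axis) of NF-kappa-B factors, IRF and STAT factors and mRNA decay factors in Cu-Cys (circles) and Cadict (squares), each against Ctrl. Nfkbie and Irf1 lie furthest to the left in Cadict, at -3.81 and -3.74, and Nfkbib furthest to the right at 2.59; the small rises of Nfkb1, Rela, Ikbkb, Chuk, Irf2, Irf8, Stat3, Zfp36l1 and Rc3h2 turn to falls under library totals.

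Regulators of the members were read from lists of genes that encode them. Of 13 NF-kappa-B subunits, inhibitors and kinases, all were tested. In Cu-Cys 3 rose and 7 fell, against 22.6% and 22.4% of all tested genes. In Cadict 5 rose and 7 fell, against 40.6% and 47.1%, so these counts lay near the whole transcriptome. Under library totals 4 of the Cadict rises turned and no fall did. That scale lowers Cadict against Ctrl (median shift -0.95), so only rises could turn. The inhibitor genes Nfkbia and Nfkbie, which NF-kappa-B itself switches on, fell in Cu-Cys (-0.59, adjusted p = 8.48e-07, and -0.77, adjusted p = 6.63e-06). In Cadict they fell further, by 1.64 (adjusted p = 1.18e-12) and by 3.81 (adjusted p = 7.49e-13). Nfkbib, another inhibitor, rose in Cadict (2.59, adjusted p = 1.58e-13), with 12.6% of its stretches overlapping Ccer2 on the opposite strand.

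Of 10 IRF and STAT factors, 5 fell in Cu-Cys, and 3 rose and 7 fell in Cadict, where the 3 rises turned under library totals. Irf1, which binds interferon-response elements, fell in Cu-Cys (-0.54, adjusted p = 2.79e-05) and in Cadict (-3.74, adjusted p = 5.83e-14). Stat2 fell in Cadict (-3.22, adjusted p = 4.15e-11), with -0.21 in Cu-Cys (adjusted p = 0.0884). Irf5 fell in both, by 0.43 (adjusted p = 0.002) and by 2.75 (adjusted p = 1.15e-10), with 11% of its stretches overlapping Tnpo3 on the opposite strand. The part of these factors in the levels of Cxcl10 was not tested.

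Of 9 factors that act on AU-rich elements or stem-loops in mRNA, 4 rose and 2 fell in Cu-Cys, and 6 rose and 3 fell in Cadict, with 2 of the rises turning under library totals. Zfp36, or tristetraprolin, which promotes decay, rose in Cadict (2.08, adjusted p = 5.11e-10), as did Elavl1, or HuR, which stabilises mRNA (1.81, adjusted p = 1.84e-14). Zfp36l2, a relative of Zfp36, fell (-2.02, adjusted p = 4.66e-14). In Cu-Cys, Zfp36 gave 0.07 (adjusted p = 0.754).

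Some markers of other cell types moved with the groups and are given as measured values. Of 8 fibroblast marker genes, all in the table, 6 were tested, and 4 fell in Cu-Cys and 4 in Cadict, with 1 rise in Cadict that turned under library totals. Their summed level was 1011 to 1070 CPM in Ctrl, 517.7 to 531.6 in Cu-Cys and 201.3 to 213.8 in Cadict, and Lum and Thy1 had at most 1 count. The collagen gene Col3a1 went from 368.4 ± 17.6 CPM in Ctrl to 147.7 ± 5.62 in Cu-Cys and 26.2 ± 2.33 in Cadict. Col1a2 (-2.19 in Cadict, adjusted p = 4.15e-15) and Pdgfra (-2.59, adjusted p = 1.41e-11) fell likewise, in the same order of groups as Ccl2 and Ccl7. Other tested markers of the list did not follow that order after TMM scaling. Col1a1 fell in both treatments but gave -0.05 for Cadict against Cu-Cys (adjusted p = 0.735). In Cadict against Ctrl, Acta2 gave 0.13 (adjusted p = 0.111) and Dcn rose by 0.82 (adjusted p = 0.0188). Under library totals these became -0.82 and -0.12. On that scale Col1a1 (-0.94 for Cadict against Cu-Cys) followed the order of Ccl2 and Ccl7. So did Acta2, at -0.24 for Cu-Cys against Ctrl and -0.58 for Cadict against Cu-Cys. Dcn did not, at 0.05 for Cadict against Cu-Cys. Most of the summed level was Col1a2 and Col3a1. The part of the fibroblast markers in the falls of Ccl2 and Ccl7 was not tested.

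Of 10 macrophage and monocyte markers, 8 were in the table and 5 stayed under 10 counts. Their sum was 7.57 to 8.56 CPM in Ctrl, 7.80 to 8.67 in Cu-Cys and 23.9 to 28.5 in Cadict, and 2 were tested, of which 2 rose in Cadict. Cd68, a lysosomal protein that many cells make, rose (2.49, adjusted p = 5.41e-12), while the defining Ptprc, Csf1r and Itgam had at most 4, 1 and 2 counts. Cd14 rose under TMM (0.81, adjusted p = 3.18e-05) and was lower under library totals (-0.14). Of 8 T cell markers, 4 were in the table and 1, Lck, was tested, which rose in Cadict (1.06, adjusted p = 0.000136) but not on the TPM scale (-0.24), and the list summed to 1.64 to 2.68 CPM in Ctrl, 2.17 to 2.56 in Cu-Cys and 4.10 to 5.44 in Cadict. Of 9 epithelial markers, 7 were in the table and 2 were tested, both higher in Cadict, with Krt19 at 3.35 (adjusted p = 4.54e-11) and Cdh1 at 1.39 (adjusted p = 3.19e-09), and Cdh1 lower in Cu-Cys (-0.64, adjusted p = 0.000591). Their sum was 5.32 to 6.83 CPM in Ctrl, 3.97 to 4.38 in Cu-Cys and 24.1 to 26.2 in Cadict. Of these markers, Cd68, Krt19 and Cdh1 were higher in Cadict than in Ctrl on each scale, whereas the direction of Cd14 and Lck depended on scaling. Cd3g, Cd8a and Cd4 had at most 4 counts, so the T cell sum was mainly Lck. The macrophage sum in Cu-Cys overlapped that in Ctrl. The part of these markers in the rises of Csf2 and Cxcl16 was not tested.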

How the data were processed

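MC38 RNA was sequenced in 9 libraries, 3 per group. The labels name DNA nanoball sequencing and the study's methods an Illumina instrument. The authors deposited a single table with expected counts (estimated reads per gene, not normalized), FPKM and TPM (both scaled by the authors to gene length and to library size). A further 9 columns of size-factor counts and columns of group averages and of the authors' own comparisons were not used. The submitters' processing notes name HISAT2 2.1.0, Bowtie2 2.3.4.3 and RSEM 1.3.1, with no role. Expected counts were rounded, filtered by filterByExpr, scaled by TMM and fitted in edgeR 4.0.16 (R 4.3.3) with 1 quasi-likelihood model of the 3 groups, with Benjamini-Hochberg adjustment over 11949 genes. Calls required a 2-fold difference and an adjusted p no greater than 0.001. The edgeR step was tested on simulated data in which a small part of the genes changed, with rises and falls balanced. That simulation did not cover the scaling on which the Cadict results depend. Alternatives were DESeq2 1.42.0, limma 3.58.1 on log2 of FPKM and TPM with pseudocounts of 1 or 0.1, other scalings and filters, a replicate block, fits of 2 groups, and leaving out each library. Named were all members, in each other list the 3 tested genes with the largest change in Cadict against Ctrl at a mean of at least 1 CPM, the 2 nearest profiles per member, and some genes chosen after their values were seen. Profile distances used log2 CPM with a pseudocount of 0.5 and genes of at least 10 CPM. The members and lists were chosen with earlier results of these data known. Stated counting precision covers counting error only.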

Additional observations from a re-analysis of the deposited data

How the results depend on the processing

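The results of Cadict depended on scaling. For Cu-Cys against Ctrl no member changed direction, and members called lower went from 5 to 4 with FPKM at a pseudocount of 1 (Cxcl10 at -0.99, under 2-fold) and with at least 10 counts in every library, which leaves Csf2 untested. For Cadict against Ctrl, members called higher numbered 0 with library totals, with FPKM at either pseudocount and with TPM, and 1 with at least 10 counts in every library, which removes Csf2. Those that rose numbered 2, 2, 2 and 0 and those that fell 5 in each of the 4 rescalings, against 11.9 to 18.1% of all tested genes that rose and 72.8 to 79.9% that fell. The FPKM and TPM values that follow are limma estimates. Csf1 reversed to -0.53 (library totals), -0.44 (both FPKM pseudocounts) and -0.78 (TPM), Cxcl10 to -0.37, -0.35, -0.39 and -0.68, and Cxcl16 to -0.0468 with TPM. For Cadict against Cu-Cys, 1 was called higher and 3 rose in each of the 4, 4 fell with library totals and TPM, against 11.4 to 17.3% of all tested genes that rose and 71.4 to 77.6% that fell over the 4, and Csf1 reversed to -0.21, -0.12, -0.13 and -0.39 and Cxcl1 to -0.30, -0.32, -0.33 and -0.59. These rescalings leave out the factor that lowers Ctrl against Cadict. Leaving out single libraries, no member changed direction, and the members called lower in Cu-Cys numbered 3 to 5, with Csf2 lost without any single Ctrl or Cu-Cys library and 3 left without replicate 1 of Cu-Cys, where Cxcl10 was lost too, at -0.86. Those called lower in Cadict against Ctrl numbered 2 to 3, with 3 without replicate 2 of Cadict, where Cxcl1 was added. Same-numbered replicates correlated at -0.192 to 0.161 and differently numbered ones at -0.243 to 0.303. No pairing by number was seen, though 3 libraries a group cannot exclude one. With the replicate block, 7 members fell in Cu-Cys (Cxcl16 at -0.22, adjusted p = 0.0431) and no other member count moved. DESeq2 size factors and DESeq2's Wald test left each member count as it was. Depth limits Ccl5, Csf2 and the receptors.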
